A study of Homo sapiens with 6 samples.

Results

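The genes of cholesterol and fatty acid synthesis were followed in NB4 cells treated with Tan I. The members were 32 gene symbols, looked up by name in a table of 18625 genes. Of these, 31 were found, and all 31 passed the filter of a mean of at least 10 normalized counts, as did 16887 genes in all. CYP51A1, a sterol demethylase, was not analysed here. The members comprised 17 sterol enzymes (7 of the mevalonate arm and 10 of the squalene and sterol arm), 5 regulators and transport genes, and 9 fatty acid enzymes (4 of synthesis, 5 of desaturation and elongation).

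NB4 is a cell line from an acute promyelocytic leukemia and carries the PML-RARA fusion. Tan I is tanshinone I, a diterpene of Salvia miltiorrhiza that the study examined as an inhibitor of the histone methyltransferase EZH2. Cells of this 1 line were given either DMSO, the solvent, or Tan I at 10 μM in DMSO, both for 3 days, and RNA was sequenced from 3 libraries per group. The labels do not say that the replicates were separate cultures, so p-values measure only the spread between these libraries, which may be technical.

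The mevalonate pathway condenses acetyl-CoA into isoprenoid units, and the squalene and sterol arm joins them and trims the product to cholesterol. Fatty acid synthesis draws on the same acetyl-CoA, and desaturases and elongases then modify the chains. When sterols are scarce, SCAP carries the SREBP transcription factors, encoded by SREBF1 and SREBF2, out of the endoplasmic reticulum, and the released factors switch on genes of both branches. SREBP-2 acts mainly on the sterol branch and SREBP-1c mainly on the fatty acid branch, while INSIG1 holds the complex back when sterols are plentiful.

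Values are normalized counts, that is, reads per gene divided by 1 size factor per library. The libraries held 25356503 to 31679138 reads on the listed genes in DMSO and 21502760 to 24298627 in Tan I. For the members, reads per library ran from 421 for TM7SF2 in Tan I 1 to 95867 for HMGCS1 in the same library. Libraries are written here by group and replicate, as in DMSO 2. The first principal component, computed over the whole set of tested genes, held 70.8% of the variance and did not separate the groups. On that component DMSO 1, 2 and 3 scored -48, 41.1 and -26.7, and Tan I 1, 2 and 3 scored -46.8, 8.65 and 71.6. DMSO 2 thus stood apart from the other DMSO libraries, while the Tan I libraries were spread widely, with Tan I 1 beside DMSO 1 and Tan I 3 at the far end. DMSO 2 and Tan I 3, the highest of their groups on this component, are followed together below. Leaving out Tan I 1 raised the number of genes called by the unadjusted criterion defined below from 408 to 1496.

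Markers of promyelocytes were expressed. Of 6 such markers 5 were in the table, 1 with an estimate above 0 and 4 below, and their summed normalized counts were 70959 to 76923 in DMSO and 41825 to 50123 in Tan I. MPO, the myeloperoxidase of primary granules, had a log2 fold change of -0.78 (SE 0.15), and CTSG, cathepsin G, one of -0.69 (SE 0.25). Both passed that criterion, in the direction of lower values with Tan I. For each other cell type examined, 1 of 2 listed markers was in the table. Those found were low but not at 0. CD3D of T cells was at 245 to 515 normalized counts and CD79A of B cells at 49.4 to 104. EPCAM of epithelium was at 144 to 253 and COL1A1 of fibroblasts at 65.5 to 120. The part of the promyelocyte shift in the values of the lipid genes was not tested. In bulk RNA, fewer cells of a type and less RNA per cell cannot be told apart.

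Each gene was compared with limma on log2(normalized count + 1), a scale on which the change of low genes is understated. A gene was called by the unadjusted criterion when p was at most 0.05 and the absolute log2 fold change was at least 0.25, the thresholds that the study used. It was called by the adjusted criterion when the Benjamini-Hochberg adjusted p over all genes tested was at most 0.05. Of the 31 members, 2 were called by the unadjusted criterion, MSMO1 and EBP, both higher with Tan I. Over all genes tested 1.32% were called higher and 1.10% lower. By the adjusted criterion 0 members were called, against 0% of all genes, and every member had an adjusted p of 0.999 in limma. At an unadjusted p of at most 0.05 alone, 2 members passed in limma, in edgeR's quasi-likelihood test and in DESeq2. With correction 0 members passed in edgeR and 0 in DESeq2. DESeq2 called 16 genes of the whole table with correction and edgeR called 0.

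Without correction, the point estimates leaned toward higher values with Tan I. Of the 31 members 23 had a log2 fold change above 0 and 8 below it, 74.2% higher against 49.7% of all genes tested. The median over the members was 0.13, beside -0.00 over all genes. Quantile normalization turned 5 of these estimates, all close to 0, from above to below 0, and rescaling each library to the same total turned 4, with the median of all genes at -0.06. For 29 of the 31 the 95% interval held 0, and for 30 it lay within 1 on the log2 scale on either side of 0. HMGCS1 was the exception to the latter, with an interval from -0.58 to 1.02. The members were read in the same 6 libraries, so they are not replicates of the treatment.

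**Figure D1:**
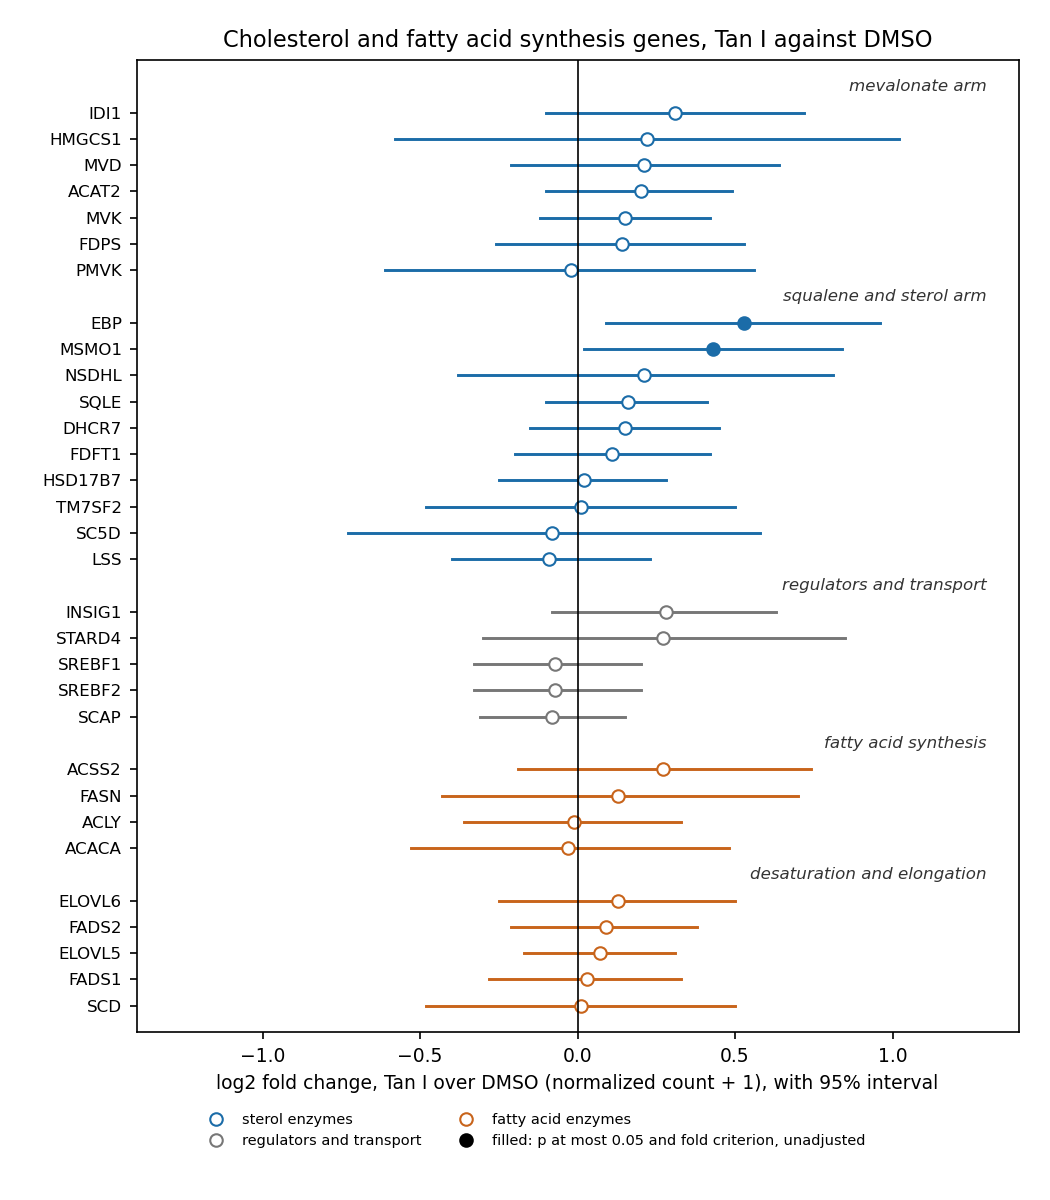
Log2 fold change between Tan I and DMSO (x axis, positive where Tan I is higher, log2 of normalized count + 1) for the 31 members, grouped by arm, with lines for the 95% interval from limma (3 libraries per group). EBP at 0.53 and MSMO1 at 0.43 are filled as past the unadjusted criterion, and their intervals are the 2 that do not reach 0.

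The mevalonate arm was read through 7 enzymes, of which 6 had estimates above 0 and 1 below, with 0 called and a median of 0.20 on the log2 scale. ACAT2 encodes the cytosolic thiolase that opens the pathway by joining acetyl-CoA units. HMGCS1, the HMG-CoA synthase of the next step, was at 85497, 39249 and 71688 normalized counts in DMSO 1, 2 and 3 and at 93703, 77140 and 52629 in Tan I 1, 2 and 3. The groups overlapped, and the lowest library of each group was DMSO 2 or Tan I 3. The means were 65478 ± 23741 and 74490 ± 20665 (SD, n = 3 each). The log2 fold change was 0.22 (SE 0.34), and it turned to -0.112 without DMSO 2.

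MVK, PMVK and MVD encode the kinases and the decarboxylase that turn mevalonate into isopentenyl pyrophosphate. Their log2 fold changes were 0.15 (SE 0.12), -0.02 (SE 0.25) and 0.21 (SE 0.18), and without DMSO 2 that of MVD was 0.023. IDI1, the isomerase of the isoprenoid units, had the largest estimate of the arm. It stood at 4920, 5604 and 4770 normalized counts in DMSO and at 5031, 6345 and 7807 in Tan I. The highest values were those of Tan I 2 and 3, while Tan I 1 lay inside the range of DMSO. Its log2 fold change was 0.31 (95% interval -0.10 to 0.72). ACAT2 at 0.20 (SE 0.13) and FDPS, the farnesyl pyrophosphate synthase, at 0.14 (SE 0.17) completed the arm. Without Tan I 1, IDI1 passed the unadjusted criterion at a log2 fold change of 0.469, and without Tan I 3 its estimate was 0.152 and was not called. Over all genes tested, 1496 passed without Tan I 1, against 408 in the main comparison.

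The squalene and sterol arm held both called members. MSMO1 is a methylsterol oxidase that acts in the removal of methyl groups from the sterol ring. It lies on the plus strand of chromosome 4 at 165327667 to 165343164 (GRCh38), and its 6 exons in the GENCODE canonical transcript overlap those of no other gene. MSMO1 was at 12976, 8836 and 12180 normalized counts in DMSO 1, 2 and 3, and at 14000, 16611 and 14755 in Tan I. Each Tan I library was above each DMSO library, and DMSO 2 lay well below the rest. MSMO1 was the only member whose groups were apart with Tan I higher, which held for 3.92% of all genes. The means were 11331 ± 2197 and 15122 ± 1344 (SD, n = 3 each). From the difference of the mean log2 values, 0.43 (SE 0.17), the fold was 1.35 (95% interval 1.02 to 1.79). The unadjusted p in limma was 0.0408 (adjusted p = 0.999), and the exact two-sided permutation test gave p = 0.1, the smallest value that 3 against 3 libraries allow.

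EBP encodes the sterol isomerase that moves a double bond in the sterol ring. It lies on the plus strand of the X chromosome at 48521799 to 48528716, where its exons overlap those of ENSG00000286268 on the same strand. EBP was at 4112, 3884 and 4596 normalized counts in DMSO and at 4555, 6722 and 7163 in Tan I. Tan I 2 and 3 were above every DMSO library, while Tan I 1 was just below DMSO 3, so the groups overlapped. The means were 4198 ± 363 and 6146 ± 1396 (SD, n = 3 each). From the mean log2 values, which differed by 0.53 (SE 0.19), the fold was 1.44 (95% interval 1.06 to 1.95). The unadjusted p in limma was 0.0244 (adjusted p = 0.999), and the exact permutation p was 0.2.

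Neither call held in every subset of libraries. No member was called without DMSO 2, without Tan I 2 or without Tan I 3. Over all 16887 genes tested, 466, 160 and 271 were called in these subsets. Without DMSO 1 only MSMO1 was called, and without DMSO 3 only EBP, while without Tan I 1 both were called and IDI1 joined them. In those subsets 180, 201 and 1496 of all genes tested were called. The estimate stayed above 0 throughout, from 0.263 to 0.540 for MSMO1 and from 0.402 to 0.729 for EBP. When DMSO 2 and Tan I 3 were both left out, 0 members were called, beside 477 of all genes tested. MSMO1 was also no longer called by quantile normalization (0.334), with equal totals (0.373) or with the replicate number as a block (0.432), while EBP was called in each of these.

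The promoter windows of these enzymes are given to show the letters near the start of the genes that passed the unadjusted criterion. Each window runs from 250 bases before to 50 bases from the annotated start, in RefSeq on GRCh38.p14. Capitals mark the NF-Y box CCAAT and the GC box GGGCGG, on either strand. Those of MSMO1 are at chr4:165327419-165327718 and those of EBP at chrX:48521558-48521857, both on the plus strand.
MSMO1: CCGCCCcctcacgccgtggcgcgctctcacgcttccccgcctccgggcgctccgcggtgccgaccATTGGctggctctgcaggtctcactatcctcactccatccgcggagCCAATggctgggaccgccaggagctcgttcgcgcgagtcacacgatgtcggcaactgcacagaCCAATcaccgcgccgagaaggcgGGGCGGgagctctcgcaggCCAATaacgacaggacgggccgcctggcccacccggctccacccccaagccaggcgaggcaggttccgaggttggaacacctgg
EBP: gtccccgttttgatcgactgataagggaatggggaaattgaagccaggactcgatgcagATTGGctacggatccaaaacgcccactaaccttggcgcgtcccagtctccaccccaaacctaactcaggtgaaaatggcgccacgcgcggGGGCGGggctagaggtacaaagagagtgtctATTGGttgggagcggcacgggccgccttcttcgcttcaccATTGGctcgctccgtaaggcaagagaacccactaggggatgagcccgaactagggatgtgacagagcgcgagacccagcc
The MSMO1 window held 4 NF-Y boxes and 2 GC boxes, and the EBP window held 3 NF-Y boxes and 1 GC box. Neither held the core of the sterol regulatory element, TCACNCCAC, or the E-box CACGTG.

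The other enzymes of the squalene and sterol arm had smaller estimates or a wide spread. FDFT1 and SQLE, which make and epoxidize squalene, had log2 fold changes of 0.11 (SE 0.13) and 0.16 (SE 0.11). LSS, the cyclase that forms lanosterol, had the lowest estimate of the sterol enzymes. LSS was at 4601, 3808 and 4456 normalized counts in DMSO and at 4226, 4346 and 3561 in Tan I. The lowest values were again those of DMSO 2 and Tan I 3, and the groups overlapped, with a log2 fold change of -0.09 (SE 0.13). NSDHL and HSD17B7, which act with MSMO1 in the removal of methyl groups, were at 0.21 (SE 0.26) and 0.02 (SE 0.11). NSDHL went the other way between libraries, with its highest values in DMSO 2 (1220 normalized counts) and Tan I 3 (1512) and the remaining libraries at 806 to 1084. TM7SF2, a sterol reductase, SC5D, the lathosterol desaturase, and DHCR7, the last reductase before cholesterol, were at 0.01 (SE 0.21), -0.08 (SE 0.28) and 0.15 (SE 0.13). In all, 8 of the 10 enzymes of the arm had estimates above 0 and 2 below, with a median of 0.13, and rescaling to the same total turned TM7SF2 and HSD17B7 below 0.

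Of the 5 regulators and transport genes 0 were called, 2 had estimates above 0 and 3 below, and the median log2 fold change was -0.07. INSIG1, the sterol-sensing anchor, was at 28582, 23667 and 27600 normalized counts in DMSO and at 28428, 34788 and 33468 in Tan I. Tan I 2 and 3 were above all DMSO libraries and Tan I 1 was inside their range. The log2 fold change was 0.28 (95% interval -0.08 to 0.63). STARD4, a sterol carrier of the cytosol, was at 0.27 (SE 0.24), with its lowest values in DMSO 2 (3163) and Tan I 3 (4039). Without DMSO 2 the estimate of STARD4 was 0.043.

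SREBF1 and SREBF2 themselves were nearly level between groups. SREBF2 was at 7634, 6879 and 7844 normalized counts in DMSO and at 7508, 7094 and 6735 in Tan I. The groups overlapped, and both genes had a log2 fold change of -0.07 (SE 0.11, 95% interval -0.33 to 0.20). These are RNA levels, and the cleavage that activates the SREBP proteins was not measured. SCAP was at 1704, 1690 and 1691 normalized counts in DMSO and at 1589, 1640 and 1576 in Tan I. It was the only member whose groups were apart with Tan I lower, which held for 3.97% of all genes, and the difference was small, with a fold of 0.945 (95% interval 0.807 to 1.11). The log2 fold change of -0.08 (SE 0.10) was not called.

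SREBF2 is shown because its window was the only one among the members to hold the core of the sterol regulatory element, and SCAP because its groups did not overlap. The windows lie at chr22:41832855-41833154 on the plus strand and at chr3:47475892-47476191 on the minus strand, and capitals also mark TCACNCCAC and CACGTG.
SREBF2: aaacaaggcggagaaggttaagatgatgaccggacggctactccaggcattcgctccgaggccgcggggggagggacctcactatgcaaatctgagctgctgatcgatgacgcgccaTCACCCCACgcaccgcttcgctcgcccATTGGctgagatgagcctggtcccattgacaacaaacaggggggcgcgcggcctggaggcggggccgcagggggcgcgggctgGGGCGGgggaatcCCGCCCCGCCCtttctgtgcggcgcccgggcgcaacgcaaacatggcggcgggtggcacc
SCAP: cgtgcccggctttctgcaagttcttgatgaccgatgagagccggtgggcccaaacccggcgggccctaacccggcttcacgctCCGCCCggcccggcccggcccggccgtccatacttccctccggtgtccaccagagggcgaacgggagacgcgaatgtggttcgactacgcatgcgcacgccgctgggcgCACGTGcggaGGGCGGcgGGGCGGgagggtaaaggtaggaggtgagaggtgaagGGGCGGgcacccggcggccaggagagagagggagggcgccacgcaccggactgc
In the SREBF2 window the core of the sterol regulatory element began 133 bases before the start, the NF-Y box 106 bases before it, and 3 GC boxes lay closer, 2 of them overlapping. The SCAP window held 4 GC boxes and 1 E-box and no NF-Y box.

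**Figure D2:**
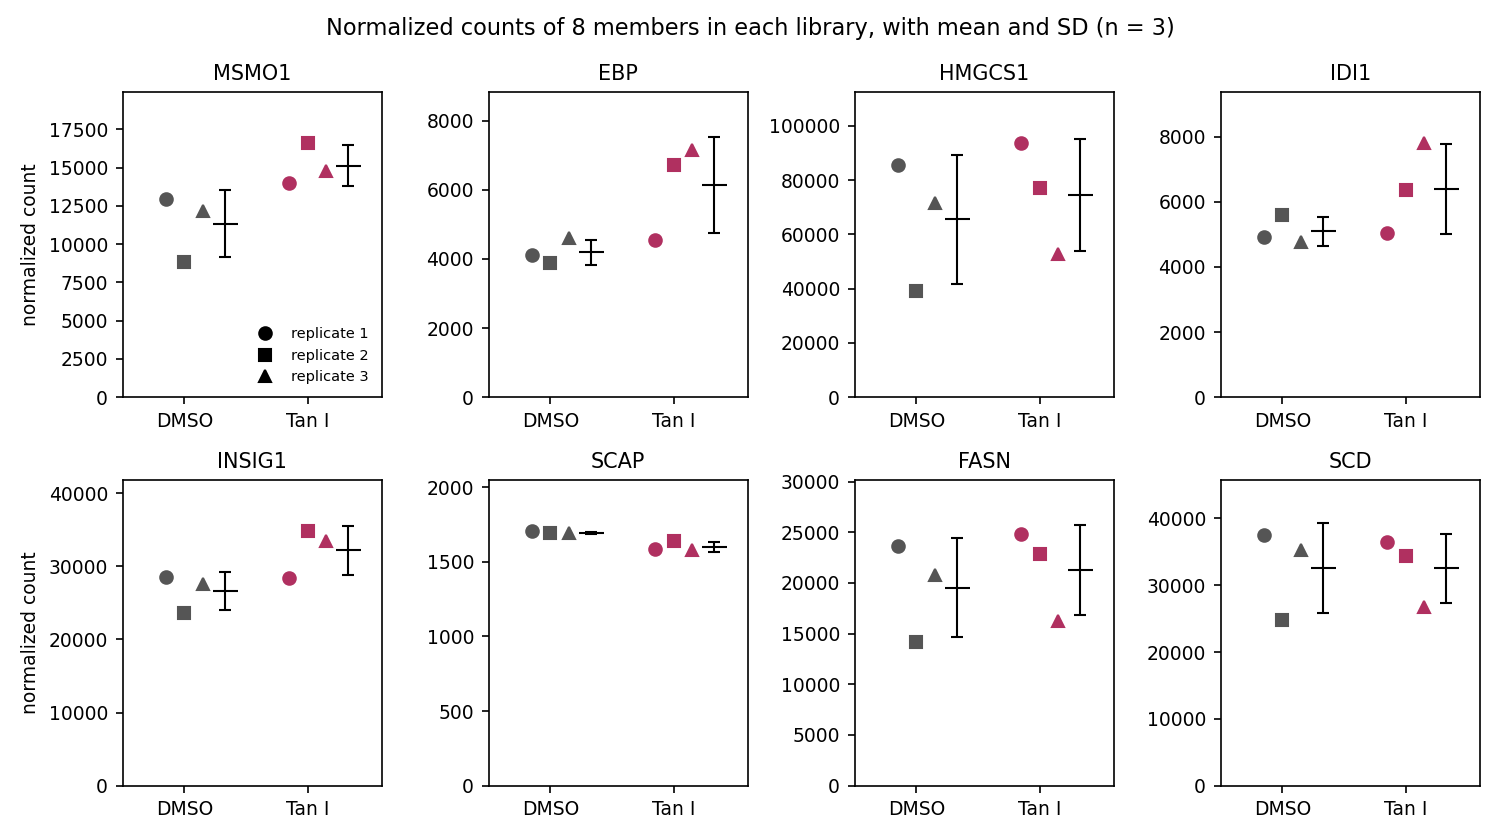
Normalized counts (y axis from 0) of 8 members in the 3 DMSO and 3 Tan I libraries, with the marker shape giving the replicate number and the bar at the right of each group giving the mean and SD. For HMGCS1, FASN and SCD the DMSO 2 and Tan I 3 points lie below the others of their groups, while for MSMO1 only DMSO 2 does so and each Tan I point is above the DMSO points.

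Of the 9 fatty acid enzymes 0 were called. Estimates ran from -0.03 to 0.27, with 7 above 0, 2 below and a median of 0.07. That median was -0.005 by quantile normalization, 0.013 with equal totals, 0.014 without DMSO 2, 0.013 without Tan I 1 and 0.145 without Tan I 3. ACSS2 and ACLY, which supply acetyl-CoA from acetate and from citrate, were at 0.27 (SE 0.20) and -0.01 (SE 0.15). ACSS2, the highest of the branch, was at 7510, 4819 and 7093 normalized counts in DMSO and at 7528, 8936 and 6753 in Tan I. The groups overlapped, with DMSO 2 lowest by far, and the estimate was 0.075 without that library. ACACA, the acetyl-CoA carboxylase that commits carbon to fatty acids, was the lowest of the branch. ACACA was at 4272, 2786 and 3810 normalized counts in DMSO and at 4281, 3640 and 2743 in Tan I. The values of DMSO 2 and Tan I 3 were nearly the same and lay below all others, and the log2 fold change was -0.03 (SE 0.22).

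FASN, the synthase that builds palmitate, was at 23665, 14153 and 20763 normalized counts in DMSO and at 24790, 22836 and 16240 in Tan I. Here too DMSO 2 and Tan I 3 were the lowest of their groups, and the groups overlapped. The log2 fold change was 0.13 (SE 0.24), and it was -0.081 without DMSO 2. SCD, the desaturase that makes oleate, was at 37486, 24859 and 35194 normalized counts in DMSO and at 36501, 34307 and 26734 in Tan I. The group means of 32513 ± 6727 and 32514 ± 5124 (SD, n = 3 each) were almost equal, and the log2 fold change was 0.01 (95% interval -0.48 to 0.50).

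FADS1 and FADS2, the desaturases of polyunsaturated fatty acids, lie on opposite strands with overlapping exons, and reads of the 2 could not be separated with certainty because no strand setting is stated. They were at 0.03 (SE 0.13) and 0.09 (SE 0.12). ELOVL5, which lengthens polyunsaturated chains, was at 0.07 (SE 0.10), and ELOVL6, which lengthens palmitate, was at 0.13 (SE 0.16). All 5 enzymes of desaturation and elongation had estimates above 0 in the main comparison, but quantile normalization turned SCD, FADS1, FADS2 and ELOVL5 just below 0 and rescaling to the same total turned SCD and FADS1. No interval of the 5 left out 0.

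The SCD window is given as the fatty acid gene with the highest level per length, at chr10:100346983-100347282 on the plus strand.
SCD: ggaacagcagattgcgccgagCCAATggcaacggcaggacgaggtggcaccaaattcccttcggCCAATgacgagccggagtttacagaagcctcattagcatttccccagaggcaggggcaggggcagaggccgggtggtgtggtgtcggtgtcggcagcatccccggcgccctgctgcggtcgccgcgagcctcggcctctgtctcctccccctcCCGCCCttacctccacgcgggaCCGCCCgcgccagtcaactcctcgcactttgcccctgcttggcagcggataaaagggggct
It held 2 NF-Y boxes and 2 GC boxes, and the core of the sterol regulatory element and the E-box were not in it. Over all members, 27 of the 31 had a window of 300 bases in RefSeq, and FASN, FDFT1, SQLE and ACAT2 had none. An NF-Y box, on either strand, was in at least 1 window of 22 of the 27 (81.5%, against 39.7% of all 27305 genes with a window), and a GC box in 25 of them (92.6% against 48.3%). Among sterol enzymes the NF-Y box was in 13 of 14 (92.9%) and among fatty acid enzymes in 6 of 8 (75.0%). The E-box was in 5 of 27 (18.5% against 8.77%), and the core of the sterol regulatory element in 1 (3.70% against 1.39%). The background held all genes with a window, whether or not they passed the filter on normalized counts, while every member passed it. The shares are thus of unlike sets, and those among the tested genes alone were not computed. These are matches of letters, not sites at which a factor was measured.

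The branches were set side by side within each library. For each gene the log2 value was centred on its mean over the 6 libraries, and the centred values were averaged over the branch. Sterol enzymes averaged 0.01, -0.20 and -0.04 in DMSO 1, 2 and 3 and -0.03, 0.14 and 0.12 in Tan I. Fatty acid enzymes averaged 0.10, -0.25 and 0.03 in DMSO and 0.15, 0.10 and -0.14 in Tan I. In both branches DMSO 2 was the lowest library, while Tan I 3 was high for sterol enzymes and low for fatty acid enzymes. The sterol average minus the fatty acid average was -0.09, 0.05 and -0.07 in DMSO and -0.18, 0.03 and 0.26 in Tan I. These differences overlapped between the groups, and their spread among the Tan I libraries was wider than that among the DMSO libraries. The mean shift with Tan I was 0.08 toward the sterol side, and it was -0.032 without Tan I 3 and 0.189 without Tan I 1. The larger median of the sterol enzymes (0.15 against 0.07) was thus within the spread between libraries. By quantile normalization the 2 medians were 0.087 and -0.005, and with equal totals they were 0.092 and 0.013.

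**Figure D3:**
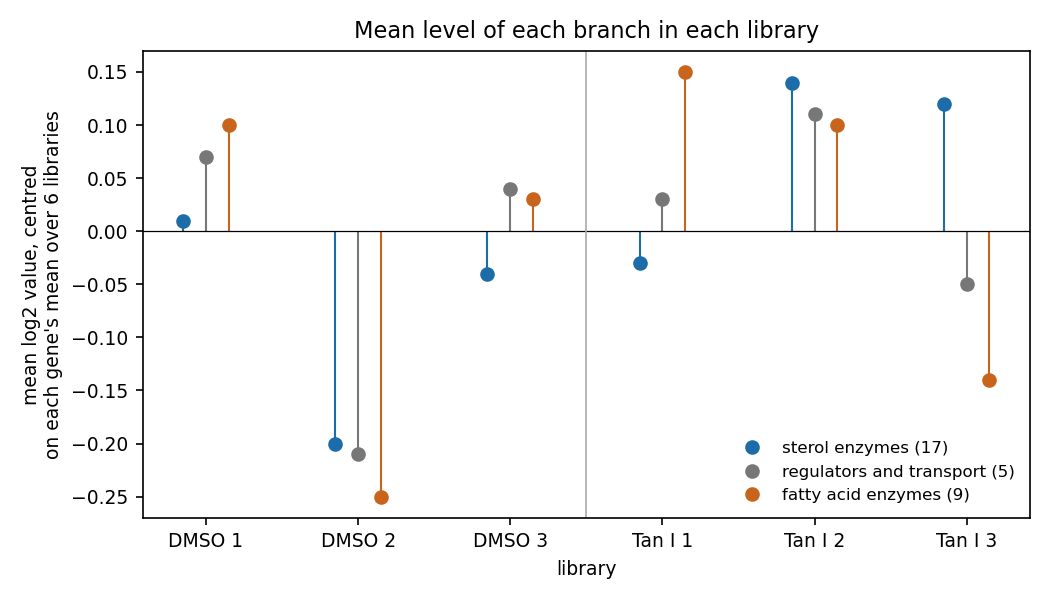
Mean log2 value of each branch in each library (y axis, centred on each gene's mean over the 6 libraries), with the number of genes per branch in the legend. DMSO 2 is low for all branches (-0.20 to -0.25), and in Tan I 3 the sterol enzymes (0.12) and the fatty acid enzymes (-0.14) lie on opposite sides of 0.

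The variation within groups was shared by many members. Relative to the other libraries of their groups, 18 of the 31 members were lower in both DMSO 2 and Tan I 3, 6 were higher in both and 7 were mixed. Over all genes tested 39.5% were lower in both and 42.4% higher in both, beside 58.1% and 19.4% of the members. HMGCS1 fell farthest in this comparison, by 1.0 on the log2 scale in DMSO 2 and by 0.69 in Tan I 3. SC5D, STARD4, FASN and ACACA followed, each lower by at least 0.52 in both libraries. NSDHL, PMVK, TM7SF2 and IDI1 were higher in both, with NSDHL at 0.55 and 0.69. Across the 31 members the differences of these 2 libraries had a Pearson r of 0.88, and across all genes tested one of 0.76. DMSO 2 and Tan I 3 were chosen as the highest of their groups on the first component, so agreement between them was partly built in. Members also share their libraries, so this correlation is a description.

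Members lower in both libraries had a median canonical transcript length of 4498 bases, and those higher in both a median of 2286 bases. Among all genes tested that have a length, these medians were 3633 and 2130 bases. Over the members, Spearman's rho between transcript length and the difference was -0.49 for DMSO 2 and -0.75 for Tan I 3, and over all genes with a length it was -0.15 and -0.25. The part of transcript length in the differences between groups was not tested.

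**Figure D4:**
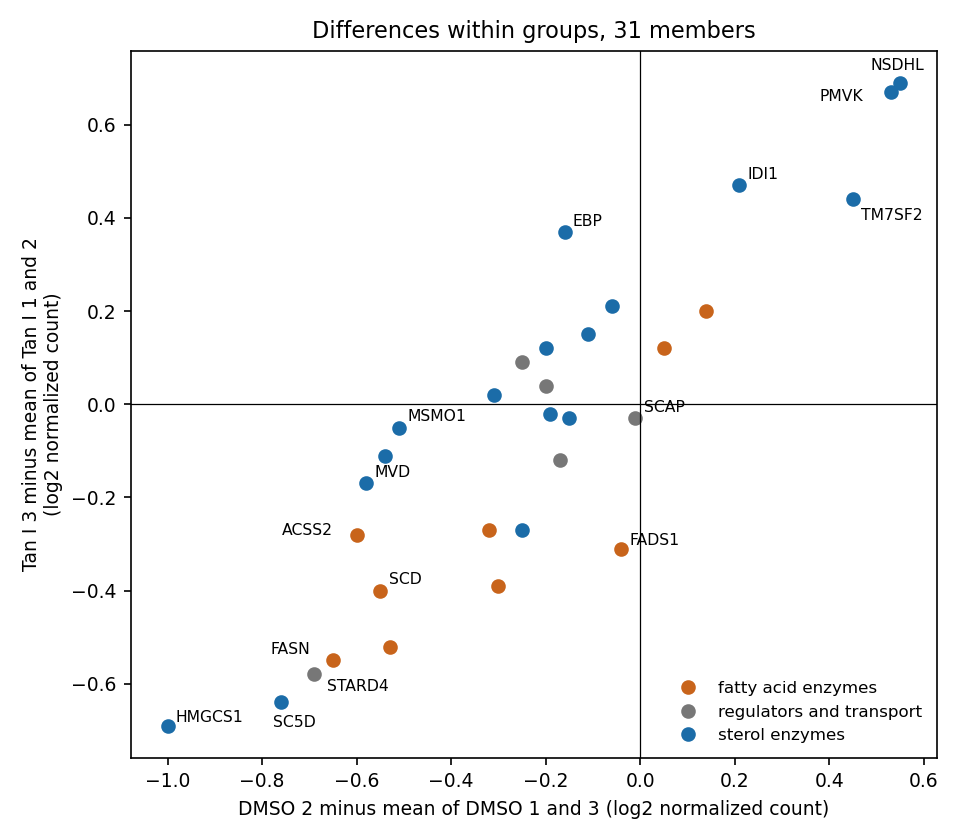
For each of the 31 members, the log2 normalized count of DMSO 2 minus the mean of DMSO 1 and 3 (x axis) against that of Tan I 3 minus the mean of Tan I 1 and 2 (y axis), coloured by branch. HMGCS1 at the lower left (-1.0 and -0.69) and NSDHL at the upper right (0.55 and 0.69) are the ends of the cloud.

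With the score on the first principal component as a covariate, the spread of most members narrowed and more of them passed. The unadjusted criterion was then met by 8 members, all higher, beside 8.86% of all genes called in either direction. These members were HMGCS1, MVD, MSMO1 and EBP of the sterol enzymes, INSIG1 and STARD4 of the regulators and transport genes, and ACSS2 and FASN of the fatty acid enzymes. MSMO1 (log2 fold change 0.48, SE 0.11, adjusted p = 0.0455 in limma) and STARD4 (0.42, SE 0.09, adjusted p = 0.0390 in limma) also met the adjusted criterion, as did 195 genes of the table. HMGCS1 had an estimate of 0.43 (SE 0.10) and an adjusted p of 0.0502 in the same limma fit. SREBF1 at -0.06 and SREBF2 at -0.03 stayed close to 0. The component was computed from these same values, so this fit is not independent of them.

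Per kilobase of canonical transcript the members covered a wide range of levels. HMGCS1 was highest, with a mean over the 6 libraries of 13081 normalized counts per kilobase (7336 to 17515 between libraries), followed by FDFT1 with 13012 (12148 to 14861). The 2 did not differ beyond their spread. INSIG1 (10118), SCD (6199), MSMO1 (5939) and MVD (5739) came next, and the ranges of SCD, MSMO1 and MVD overlapped. At the low end were TM7SF2 (336) and ELOVL6 (204), whose ranges of 261 to 408 and 168 to 240 were apart. Between libraries SCAP was the steadiest member, with its highest value 1.08 times its lowest, and HMGCS1 the most variable, at 2.39 times.

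Genes around these pathways gave few calls. Of 11 listed symbols for SREBP processing and sterol sensing 10 were found, 4 higher and 6 lower, with 0 called and a median of -0.08 on the log2 scale. The symbol not found, SPRING1, is a newer name of C12orf49, which was found. INSIG2, a second anchor of SCAP, had the largest estimate of this list at 0.11 (SE 0.21), and C12orf49, now SPRING1, a cofactor of SREBP cleavage, the lowest at -0.41 (SE 0.53). C12orf49 ranged from 938 to 2566 normalized counts in DMSO and from 697 to 2585 in Tan I, so its groups overlapped widely.

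For sterol uptake, export and storage 14 of 15 were found, 7 higher and 7 lower, with a median of -0.01. GRAMD1B, which moves sterol from the plasma membrane to the endoplasmic reticulum, was the 1 call of that list. It was at 125, 91.5 and 102 normalized counts in DMSO and at 80.1, 73.8 and 54.7 in Tan I. Each Tan I library was below each DMSO library, with a log2 fold change of -0.61 (SE 0.23, adjusted p = 0.999 in limma). NR1H3, the oxysterol receptor LXR alpha, had the largest estimate, 0.24 (SE 0.16).

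Of the 15 genes that use isoprenoids, 10 were higher and 5 lower, with a median of 0.12. SRD5A3, the polyprenol reductase, had the largest estimate at 0.22 (SE 0.24) and DOLK, the dolichol kinase, the lowest at -0.51 (SE 0.45).

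Of the 18 listed genes of fatty acid supply, elongation and activation 17 were found, 9 higher and 8 lower, with a median of 0.04. ME1, the malic enzyme that yields NADPH for fatty acid synthesis, was called higher. ME1 was at 518, 734 and 559 normalized counts in DMSO and at 724, 873 and 999 in Tan I. The groups overlapped, since DMSO 2 was above Tan I 1, and the log2 fold change was 0.52 (SE 0.18, adjusted p = 0.999 in limma). MLXIPL, the carbohydrate-sensing transcription factor ChREBP, was called lower, at 30.8, 43.3 and 37.5 normalized counts in DMSO and 16.6, 15.8 and 25.3 in Tan I, with a log2 fold change of -0.93 (SE 0.31, adjusted p = 0.999 in limma). Its groups were apart, at low levels. A figure of the study shows MLXIPL among the genes followed by RT-qPCR. The call here comes from that study's own libraries, so it adds no evidence from outside the study. Of 14 genes of mitochondrial fatty acid oxidation 0 were called, 9 were higher and 5 lower, and the median was 0.11, with ETFB, an electron carrier subunit, at 0.22 (SE 0.29) and CPT2, the inner carnitine palmitoyltransferase, at -0.11 (SE 0.24) as the ends of the list.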

How the data were processed

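RNA of NB4 cells was sequenced from 3 DMSO and 3 Tan I libraries, grouped by the sample labels. The study's methods state that reads were sequenced from both ends and aligned by the authors with STAR (GRCh38). Multiply mapped reads were dropped, the remainder was assigned to genes by featureCounts, and DESeq2 was used for testing. Versions, annotation release and strand setting are not given in the sources used here. The authors deposited 1 table of 18625 genes whose per-library signal is a read count divided by a size factor per library. It also holds their own comparison (a mean, a log2 fold change with its error and statistic, and p-values), which was not used, and 0 other columns of per-sample values. All values (100%) were whole multiples of 1 read within 0.01, and the reads were recovered from them with size factors of 0.750 to 1.28. Intervals reflect the spread of 3 libraries per group, and the depth is the range of reads given above.

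Genes were tested with limma 3.58.1 under R 4.3.3 (eBayes with trend) on log2(normalized count + 1) for genes with a mean of at least 10, which left out 1738. P-values were adjusted by Benjamini-Hochberg over all 16887 genes tested. For single members the exact permutation test (two-sided, scipy 1.17.1) compared mean log2 values. Gene positions and canonical lengths came from GENCODE release 44, which holds 18550 of the identifiers. Exons of 14 members overlap a gene on the opposite strand and those of 4 a gene on the same strand, so some of their reads are uncertain. Promoter windows and their letters came from RefSeq on GRCh38.p14. The fit was tested on simulated data, with changes larger than the estimate of any member. Each gene was drawn separately, without variation shared across genes within a library. That simulation therefore does not cover changes of the size seen in the members.

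Members, lists and tests were chosen with earlier results of these data known. All members are named; full values are given for those past the unadjusted criterion, with groups that do not overlap, or at the ends of their branch, and of the other lists for called genes and the ends of each list. Some genes outside the members are not reported here. Also tried were a pseudocount of 0.1 or 10, a mean of at least 50 or none, quantile normalization, equal totals, count tests on the recovered reads (edgeR 4.0.16 and DESeq2 1.42.0), a replicate block, the first principal component as a covariate, and each library left out. Leaving out DMSO 2 and Tan I 3 together was added after seeing the data.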

Additional observations from a re-analysis of the deposited data

How the results depend on the processing

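Of the 31 members 16 kept the direction of their estimate under all 17 alternatives, and 15 did not, none of which had an absolute log2 fold change over 0.22. Pseudocounts and filters on low values changed no call of a member. Members called by the unadjusted criterion were 1 under quantile normalization, 1 with equal totals and 1 with the replicate block (EBP each time), 8 with the score on the first component as a covariate and 0 without DMSO 2 and Tan I 3. Leaving out 1 library gave 0 to 3 members and 160 (without Tan I 2) to 1496 (without Tan I 1) genes, against 408 in the main comparison. The component as a covariate gave 1496 genes, and 195 with correction. DESeq2 gave 16 genes with correction and the fit without DMSO 2 and Tan I 3 gave 2. Without those 2 libraries the median of the sterol enzymes was 0.045. The cause of these shifts was not tested. Same-numbered libraries deviated with correlations of 0.75, -0.09 and -0.45, so the numbers were not taken to pair the libraries, and the block changed no other call of a member.

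Estimates that changed sign were, under quantile normalization, -0.005 for ELOVL5, -0.041 for SCD, -0.021 for HSD17B7, -0.010 for FADS2 and -0.002 for FADS1. With equal totals they were -0.050 for SCD, -0.043 for HSD17B7, -0.031 for FADS1 and -0.048 for TM7SF2. SCD was at -0.002 in both edgeR and DESeq2. With the component as a covariate SC5D was at 0.101, ACLY at 0.057, TM7SF2 at -0.111 and ACACA at 0.105. Without DMSO 2 and Tan I 3, SCD was at -0.038, HSD17B7 at -0.072 and FDPS at -0.007.

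With 1 library left out, the ranges of those that changed sign were -0.112 to 0.451 for HMGCS1, -0.247 to 0.185 for PMVK, -0.042 to 0.243 for FDPS, -0.168 to 0.004 for LSS, -0.136 to 0.186 for TM7SF2, -0.017 to 0.436 for NSDHL, -0.034 to 0.092 for HSD17B7 and -0.332 to 0.137 for SC5D. They were -0.120 to 0.077 for ACLY, -0.206 to 0.147 for ACACA, -0.081 to 0.318 for FASN, -0.172 to 0.145 for SCD and -0.069 to 0.132 for FADS1. Wide ranges without a change of sign were 0.043 to 0.467 for STARD4, 0.023 to 0.326 for MVD, 0.152 to 0.469 for IDI1, 0.075 to 0.395 for ACSS2, 0.044 to 0.212 for DHCR7 and 0.026 to 0.256 for ELOVL6. The median of the fatty acid enzymes ran from 0.013 to 0.145 and that of the sterol enzymes from 0.089 to 0.212. With 3 libraries per group the precision was set by the spread between libraries, which left the interval of HMGCS1 at -0.58 to 1.02, although each of its libraries held at least 39464 reads.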
